A study of Drosophila melanogaster with 15 samples.

Results

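Embryos of Drosophila melanogaster frozen 60 min after a low dose of gamma rays were compared with unirradiated embryos of the same age, gene by gene. The 60 min group was 3 samples (A, B and C) of the w[1118] strain that received 500 µGy of gamma rays at 22.4 mGy/h, and the control group was 3 samples of the same strain and letters at 0 µGy. These 6 arrays were chosen by their sample titles from 15; the other 9 are 3 each at 5, 30 and 90 min after the same dose. In every group whole embryos had been kept at 23 °C and were frozen when 3 to 4 h old, so embryos of the 60 min group were younger when irradiated than those of the 5 or 30 min group, and age at irradiation and time since irradiation cannot be told apart between the times. The strain carries a mutation in the white eye-colour gene in all groups, controls included. The labels call the samples biological replicates. Total RNA was copied from an oligo(dT) primer and hybridized to 1 Affymetrix array per sample.

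At this age the fly embryo passes from maternal to zygotic control. RNA that the mother loaded into the egg is degraded, the embryo's own genome has been switched on, the cells of the blastoderm have formed and gastrulation begins. Ionizing radiation breaks DNA; in the fly the checkpoint kinases and p53 respond by inducing cell death genes such as reaper, sickle and grim, together with genes of DNA repair. Over these hours maternal RNAs decline and RNAs of patterning genes accumulate. As the RNA came from whole embryos, fewer cells of a type and less RNA per cell cannot be told apart.

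Each of 18769 probe sets had an intensity on every array, and 183 Affymetrix control probe sets were set aside. Differences below are 60 min minus control in log2(intensity + 1), with folds computed from them. A probe set with a mean log2 intensity of 8 or more over the 15 arrays is called bright, and 5636 were bright, which covered 4776 named genes with 1 probe set each. Just inside that limit lay Sec24AB, with a mean of 8.0003 and a difference of -1.28, and just outside it CG5742, at 7.9994 and 0.17. The median standard error of a difference was 0.47 for bright and 0.83 for dim probe sets. With the sample letter added to the model as a block (a paired comparison of A with A, B with B and C with C) these became 0.29 and 0.78. Median intensities of the 6 arrays lay between 29.5 and 42.5. Markers of the eggshell and follicle cells summed to 203 to 432 intensity units per array over 15 genes, with 0 bright, and markers of adult flies to 117 to 231 over 10 genes, with 0 bright. The 3 pairs were not alike. Over bright probe sets the differences of pairs A and C correlated at r = 0.46, those of B and C at 0.357 and those of A and B at -0.0683; these are correlations across probe sets that share array effects, given as a description.

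No probe set passed the test. At limma's adjusted p of 0.05 the count was 0 of 18769 (0%), while 639 (3.4%) were under 0.05 before adjustment. In the model with the letter block the count was also 0 (0%); there limma's smallest adjusted p was 0.234 and 1644 (8.76%) were under 0.05 before adjustment. Over all probe sets, the 3 irradiated arrays lay above all 3 controls in 965 (5.14%) and below them in 392 (2.09%). Among bright ones they lay above in 116 (2.06%) and below in 73 (1.3%). Dim probe sets gave 849 above and 319 below, and under quantile normalization 596 and 592, whereas bright ones then gave 134 and 71. The named genes that follow were ordered by their p in the letter-block model among bright probe sets whose groups did not overlap. Their values are therefore a description of this comparison and add no support to it.

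**Figure D1:**
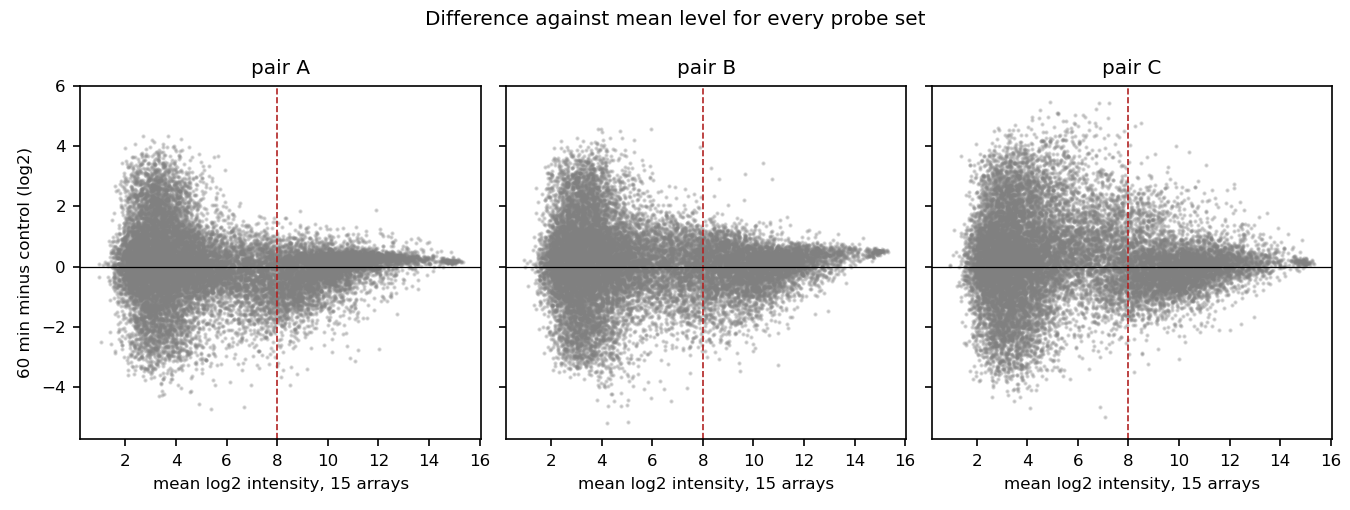
Difference between the 60 min and the control array of each letter (log2, vertical axis) against the mean log2 intensity over 15 arrays (horizontal axis), 1 point per probe set and 1 panel per letter; the dashed line marks the bright limit of 8. Dim probe sets scatter over several log2 units in all 3 pairs, and bright ones extend further downwards in pair A and further upwards in pair C.

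Of the 60 bright genes (1.26%) that lay below all controls, 12 are named here, and several of the 12 serve DNA synthesis, chromosomes and the cell cycle. In the list of cell cycle and replication genes, 2 of 25 bright members lay below all controls. Whether any function was more frequent among the named genes than among all bright genes was not tested. RnrL encodes the large subunit of ribonucleotide reductase, which makes the building blocks of DNA. Its intensity was 4689, 2223 and 4439 in controls A, B and C and 2198, 959 and 1210 in the irradiated samples of the same letters. All irradiated values lay below all controls, although 60 min A and control B nearly met. The difference was -1.39 ± 0.47 (SE; 0.25 with the letter block, n = 3 against 3), or 2.63-fold lower, with limma's adjusted p of 1 without the block and 0.234 with it, the smallest value reached there. Over the 28 model settings tried, the adjusted p of RnrL ran from 0.00369 to 1.

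The cohesin regulator pds5 had intensities of 1303, 1377 and 1168 in controls A, B and C against 742, 639 and 463 at 60 min. Here the controls were close together and the groups lay well apart, with a difference of -1.08 ± 0.36 (0.25 with the block) or 2.12-fold lower. Rbf, the retinoblastoma-family repressor of E2F targets, had intensities of 1011, 505 and 906 in the controls and 339, 363 and 399 at 60 min. The irradiated samples were alike, and control B was the lowest control. Its difference was -1.08 ± 0.36, or 2.11-fold lower.

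Grip128, a component of the gamma-tubulin ring complex that nucleates microtubules, was at 784, 349 and 776 in the controls and at 147 to 343 in the irradiated samples. The gap between the groups was narrow, because control B (349) and 60 min A (343) almost touched. The microtubule-destabilizing stathmin, stai, was at 2558, 1135 and 1350 in the controls and 1099, 577 and 492 at 60 min. Its groups too were separated only by a small step between control B and 60 min A. Differences were -1.34 ± 0.69 for Grip128 and -1.22 ± 0.57 for stai.

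A second group of lower genes handles ubiquitin and metabolism. The polyubiquitin gene Ubi-p5E had intensities of 4631, 3360 and 3240 in the controls and 2694, 957 and 1129 after irradiation. The A samples were the highest of both groups. It was 2.59-fold lower, by -1.37 ± 0.63. Usp14, a proteasome-associated ubiquitin protease, was at 4060, 2853 and 3157 against 2491, 1777 and 1577. Every irradiated sample was below every control, with a difference of -0.80 ± 0.39. Idh, the NADP-dependent isocitrate dehydrogenase, was at 3743, 1519 and 2763 against 1478, 1308 and 1227. Control B stood just above the irradiated samples, which were nearly equal. Idh differed by -0.91 ± 0.42, or 1.88-fold lower. blw, the alpha subunit of the mitochondrial ATP synthase, was at 11779, 8586 and 10700 against 8019, 7560 and 6076. This bright gene had the smallest difference of the 12 lower genes, -0.52 ± 0.27, or 1.43-fold.

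The remaining 3 of the 12 lower genes were sds22, a regulatory subunit of protein phosphatase 1 (-1.03 ± 0.51), out, which encodes a putative monocarboxylate transporter (-0.83 ± 0.41), and brun, a subunit of a vesicle tethering complex (-0.81 ± 0.41). Across the 12, limma's adjusted p with the letter block was 0.234 to 0.411 and without it 1. In the other irradiated groups, which were set against the same control arrays, 8 of the 12 lay below the same-letter control in all 9 arrays. Because the 12 had been chosen by comparison with these controls, this count is not independent evidence.

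With each gene read on its brightest probe set, 90 bright genes (1.88%) lay above all controls. The 12 higher genes of the same rule were picked over all bright probe sets. SF2, Hrb98DE and Syb entered through a dimmer probe set, and on their brightest ones the groups overlapped. The 12 included several RNA-binding proteins and ubiquitin ligase parts. SF2, an SR splicing factor, had intensities of 217, 345 and 241 in controls A, B and C on one probe set and 402, 683 and 756 at 60 min. All irradiated samples were above all controls, with a difference of 1.17 ± 0.50 or 2.25-fold. A second SF2 probe set, far brighter, read 10019, 12664 and 16647 in the controls and 11893, 19770 and 23517 at 60 min. There the groups overlapped, and the difference was 0.46 ± 0.35. Hrb98DE, a heterogeneous nuclear ribonucleoprotein, was at 252, 375 and 127 against 582, 572 and 443 on its named probe set, and its difference of 1.20 ± 0.46 was likewise larger than the 0.48 ± 0.58 of its other, brighter probe set. l(1)10Bb, a homologue of the splicing factor BUD31, was at 2541, 3298 and 3245 against 3430, 5326 and 5320. The lowest irradiated sample was only slightly above the highest control. Its difference was 0.61 ± 0.34, or 1.53-fold.

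Pli, the fly Pellino, a ubiquitin ligase of the Toll pathway, had intensities of 564, 863 and 291 in the controls against 980, 2014 and 1458 at 60 min. Its 2.72-fold higher level (1.45 ± 0.53) was the largest of the 12, and it was widest in pair C, at 2.32 against 0.80 in pair A. SkpA, the adaptor of SCF ubiquitin ligases, was at 12129, 14192 and 11506 against 14659, 19932 and 17333. This was the smallest of the 12 differences, 0.45 ± 0.21 or 1.37-fold. CG13427, with a mean log2 intensity of 14.86, was at 17934, 24745 and 23290 against 25305, 37654 and 42592. All 3 irradiated arrays were above all controls, by 0.66 ± 0.29, and with the block this gene had the smallest p of the higher genes (0.000139, limma's adjusted p = 0.278; 0.00762 to 1 over 28 settings).

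Genes of membranes, junctions and the cytoskeleton made up most of the rest. Gli, a protein of tricellular septate junctions, was at 431, 796 and 327 against 833, 1437 and 1321. Its irradiated samples were above all controls, with the step from control B to 60 min A the narrowest, and the difference was 1.27 ± 0.57. Rtnl1, a reticulon of the endoplasmic reticulum, was at 8728, 10731 and 6767 against 10818, 15634 and 11195. The groups nearly touched at control B and 60 min A, and the difference was 0.53 ± 0.26. Syb, a synaptobrevin of vesicle fusion, differed by 0.68 ± 0.35 on the named probe set and by 0.27 ± 0.29 and 0.24 ± 0.26 on its others. alphaTub84D, an alpha-tubulin, differed by 1.23 ± 0.51, with control C (102) far below controls A and B (269 and 401). CG1806 and CG7900 differed by 1.31 ± 0.61 and 1.02 ± 0.57. The probe sets of SF2, Hrb98DE, Gli, SkpA, Rtnl1, Idh and alphaTub84D are of a kind whose probes can match more than 1 transcript, so their assignment to a single gene is uncertain. Over the 12 higher genes limma's adjusted p with the letter block was 0.278 to 0.389 and without it 1. In 10 of the 12, all 9 arrays of the other times lay above the same-letter control. The 12 had been chosen by comparison with those same control arrays, so this count is not independent evidence. The share of all bright genes with this pattern is not given here.

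**Figure D2:**
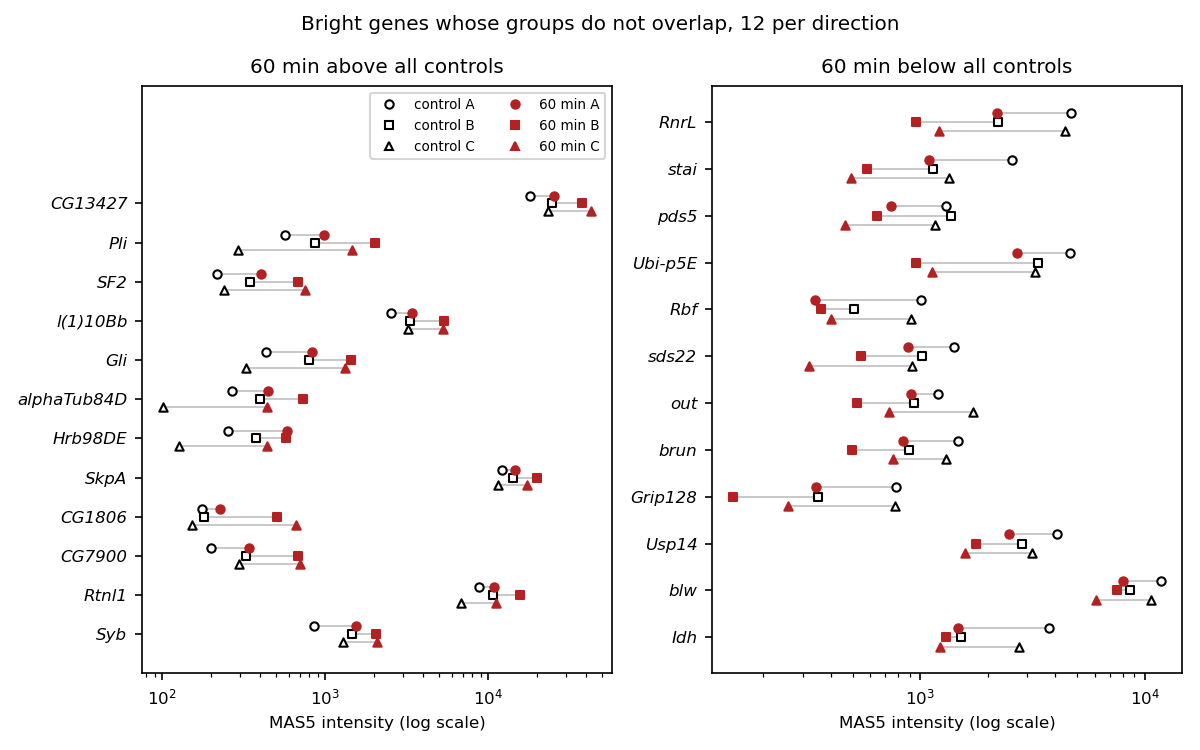
MAS5 intensity (log axis) of the 12 higher and 12 lower bright genes in each of the 6 arrays; open symbols are controls, filled symbols 60 min samples, shapes mark the letter and grey lines join the same letter. Groups do not overlap by choice of the probe sets, and in many genes control B and 60 min A lie next to each other.

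A different view takes each letter by itself. Among 4776 bright genes, 811 (17%) were lower and 1182 (24.7%) higher in all 3 pairs, without regard to size. By more than 2-fold in all 3 pairs, 19 genes were lower (0.398%) and 0 higher (0%). In single pairs, 459, 375 and 311 genes were lower by more than 2-fold in A, B and C, and 39, 153 and 368 were higher. The 19 genes were picked after the values were seen, by the size of the same differences. Fs(2)Ket, otu and osk are in the list of maternal transcripts, and osk, zpg and piwi in the list of pole cell genes, 5 genes of the 19 in all.

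The widest difference of the 19 was that of Fs(2)Ket, the fly importin beta that carries proteins into the nucleus. Its intensity was 6162, 2168 and 1918 in controls A, B and C and 2655, 366 and 228 in the irradiated samples. Sample A was high in both groups, so that 60 min A exceeded controls B and C although it was below its own control. The difference was -2.28 with a standard error of 1.19 without and 0.39 with the letter block (4.86-fold lower; limma's adjusted p = 1 and 0.234). osk, the organizer of the germ plasm at the posterior pole, was at 5428, 1511 and 1031 against 2096, 639 and 309. It showed the same order, with A highest in both groups, and differed by -1.45 ± 0.94 (0.25 with the block). otu, a deubiquitinase needed in oogenesis, was at 2376, 473 and 380 against 767, 105 and 97.6. Again only the letter-wise comparison separated the groups, by -1.63, -2.16 and -1.95 in pairs A, B and C.

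The gap junction protein of germ cells, zpg, had intensities of 2924, 989 and 2639 in the controls against 1299, 400 and 668 at 60 min. Control B lay below 60 min A, and the pairs differed by -1.17, -1.30 and -1.98. piwi, the germline Argonaute of the piRNA pathway, was at 1053, 407 and 247 against 417, 170 and 118, and differed by -1.21 ± 0.76 (0.30 with the block). Gcna, a germ cell nuclear protein, was at 1912, 315 and 335 against 316, 131 and 106. Control A alone was much higher than the rest, and 60 min A had the level of controls B and C.

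Both lipid-droplet proteins among the 19 had large differences. Jabba, which tethers maternal histones to lipid droplets, was at 7705, 967 and 3641 against 1649, 452 and 638. Lsd-2, a perilipin of the droplet surface, was at 9007, 3225 and 6020 against 4236, 856 and 1548. In each, control B was lower than 60 min A. The folds were 3.85 for Jabba and 3.15 for Lsd-2, with standard errors of 0.99 and 0.82 without the block and 0.56 and 0.35 with it.

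Chromosome and replication genes were also present. Cdc7, a kinase that fires replication origins, was at 2347, 767 and 796 against 888, 220 and 332. dmt, which protects sister chromatid cohesion, was at 1959, 614 and 260 against 732, 166 and 109. RecQ4, a DNA helicase, was at 780, 312 and 369 against 339, 153 and 133. In all of these, 60 min A was above control B. RnrL and Grip128, described above, were the only 2 of the 19 whose groups did not overlap. The other 6 were Pxt, a peroxidase active in the ovary (-1.58 ± 0.79), Alr, a mitochondrial sulfhydryl oxidase (-1.34 ± 0.76), CG10254 (-1.83 ± 0.75), CG7627 (-1.72 ± 0.81), CG10979 (-1.36 ± 0.77) and superdeath (-1.63 ± 0.92). Standard errors of the 19 with the block were 0.25 to 0.56, and limma's adjusted p was 0.234 to 0.483 there. In 15 of the 19 all 9 arrays of the other times were below the same-letter control, and in the rest 8 of 9 were. Those arrays are set against the same controls by which the 19 were chosen, so these counts are not independent evidence. Fs(2)Ket and Jabba each had 2 probe sets and osk had 3, and values of their other probe sets are not given here. The probe sets of CG10254 and superdeath are of the kind that can match more than 1 transcript.

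**Figure D3:**
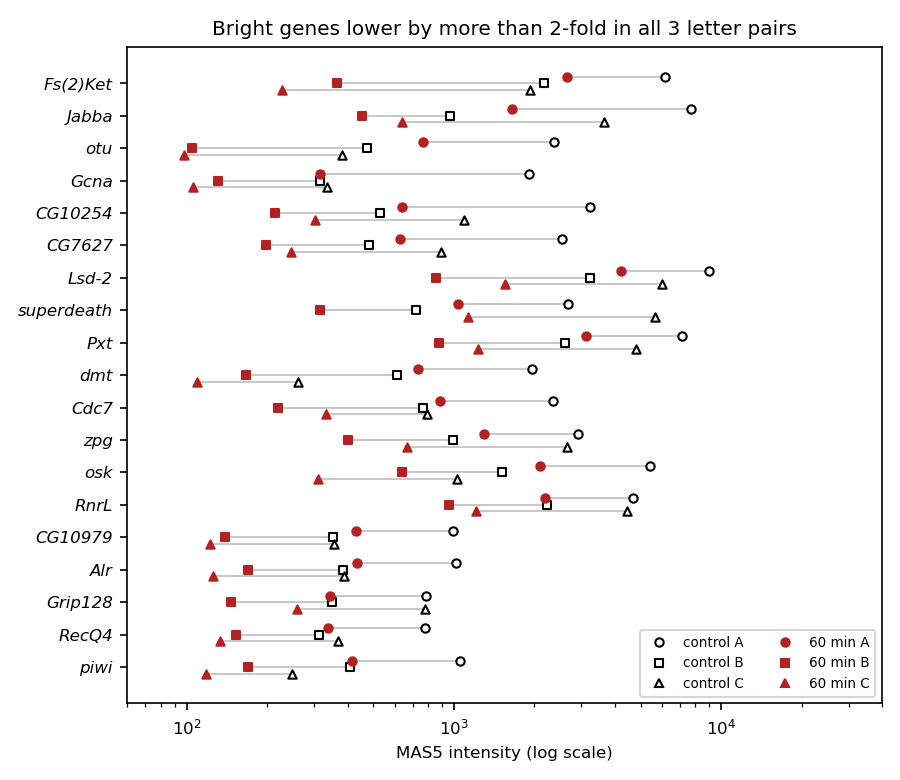
MAS5 intensity (log axis) of the 19 bright genes that were lower by more than 2-fold in every letter pair, with open symbols for controls, filled ones for 60 min samples and grey lines joining the same letter. Each line runs to the left, and the A samples lie to the right of the others in both groups for most genes.

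Gene groups were read from lists, with 1 probe set per gene, and against all bright genes, whose median difference was -0.01 (49.2% higher, 50.8% lower; 24.7% higher and 17% lower in all 3 pairs). Over all genes, dim ones included, 55% were higher and 45% lower. In no list did a member pass limma's test, with or without the letter block. Maternal transcripts were on the lower side: 26 of 31 bright members were lower, 15 of them in all 3 pairs, with a median of -0.52. The pair medians were -0.19, -0.60 and -0.68. Beside the genes above, the lowest bright members were alphaTub67C, the maternal alpha-tubulin, and exu, which localizes bicoid RNA.

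alphaTub67C had intensities of 3482, 343 and 3176 in controls A, B and C and 330, 237 and 478 at 60 min. Control B was at the level of the irradiated samples, whereas A and C were far above, and the difference was -2.22 ± 0.93. The maternal thioredoxin dhd repeated this at a higher level, with 14768, 2006 and 25819 against 2222, 2011 and 6035. The B samples were equal (0.00), while A and C differed by -2.73 and -2.10. exu was at 2314, 139 and 1228 against 249, 105 and 162. Smaller differences were seen in other maternal RNAs: bcd, the anterior morphogen, by -0.43 ± 0.39, and CycB, the mitotic cyclin, by -0.20 ± 0.21. The highest bright member was vls, a germ plasm methylation cofactor, at 0.33 ± 0.45.

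Of 9 bright pole cell genes, which mark the germline precursors, 7 were lower and 6 of these in all 3 pairs, with a median of -0.95. osk, gcl and CycB, among others, are in the maternal list too. The summed intensity of the 14 measured pole cell genes was 38725, 26427 and 33782 in controls A, B and C and 26719, 23371 and 23254 in the irradiated samples. Control B thus lay within the irradiated range, and 60 min A was above control B. CycB was the largest part of every sum, with 15542, 14082 and 21715 in the controls and 12803, 15347 and 15985 at 60 min. The sums therefore largely follow a single gene and are no measure of pole cell number.

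Zygotic patterning genes were on the higher side in pairs A and C. The Notch targets of the E(spl) and Bearded groups were higher in 8 of 8 bright cases and in all 3 pairs in 6, with a median of 1.02 and pair medians of 0.69, 0.43 and 1.68. Tom, a Bearded-family inhibitor of the Notch pathway, was at 4527, 8579 and 4164 in the controls and 6698, 15666 and 12986 at 60 min. Its groups overlapped through control B, and each letter was higher, by 0.57, 0.87 and 1.64. E(spl)m5-HLH, a Notch-induced repressor, was at 220, 640 and 188 against 391, 1081 and 752, a difference of 1.19 ± 0.81. The highest of the 8 was E(spl)m7-HLH at 1.23 ± 0.94, and the lowest were E(spl)m4-BFM (0.32 ± 0.64) and Brd (0.38 ± 0.71).

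Endoderm and gut primordium genes had a median of 0.81, with 6 of 8 bright members higher. bowl, a zinc finger gene of the gut, was at 194, 540 and 176 against 407, 904 and 1153, and byn, the Brachyury homologue of the hindgut, at 271, 368 and 98 against 388, 687 and 400. Every irradiated byn value was above every control, and for bowl control B was above 60 min A. The differences were 1.50 ± 0.71 for bowl and 1.14 ± 0.55 for byn, whereas the posterior determinant cad, also maternal, was lower by -1.06 ± 0.65.

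In the segmentation hierarchy the B pair stood against the others. Gap genes had a median of 0.48, but 0.99, -0.64 and 0.81 by pair, and pair-rule genes 0.40, with 0.75, -0.50 and 1.12. hb, a gap gene with maternal and zygotic RNA, was at 3370, 3657 and 720 against 3704, 839 and 475, and Kr at 1343, 2656 and 142 against 2666, 1011 and 204. For both, 60 min B lay far below control B, while control C was already low. Segment polarity genes (4 bright) had a median of 0.73 and pair medians of 0.28, 0.01 and 1.94. nkd, an inhibitor of Wingless signalling, had the widest difference of the bright ones (1.70 ± 1.42), almost all of it in pair C at 4.76. Dorsal ectoderm and amnioserosa genes (0.39; 10 of 13 higher), mesoderm genes (0.38; 6 of 6) and neuroectoderm and proneural genes (0.62; 8 of 10) had pair B medians of -0.11, 0.22 and -0.05. Ance (1.15 ± 0.70), twi (0.70 ± 0.42) and Tom (1.02 ± 0.49) were among the highest members of each in turn. Without control C, the median of the gap genes was -0.29, of pair-rule genes -0.47, of segment polarity genes -0.38 and of neuroectoderm genes -0.02 (and of gap genes -0.01 without 60 min A), so the direction of these 4 lists rested on that array. The genome activation factors were split: grh (1.42 ± 1.07) and opa (0.97 ± 1.13) were the highest and cad and Stat92E (-0.48 ± 1.13) the lowest of 9, with a median of 0.07.

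**Figure D4:**
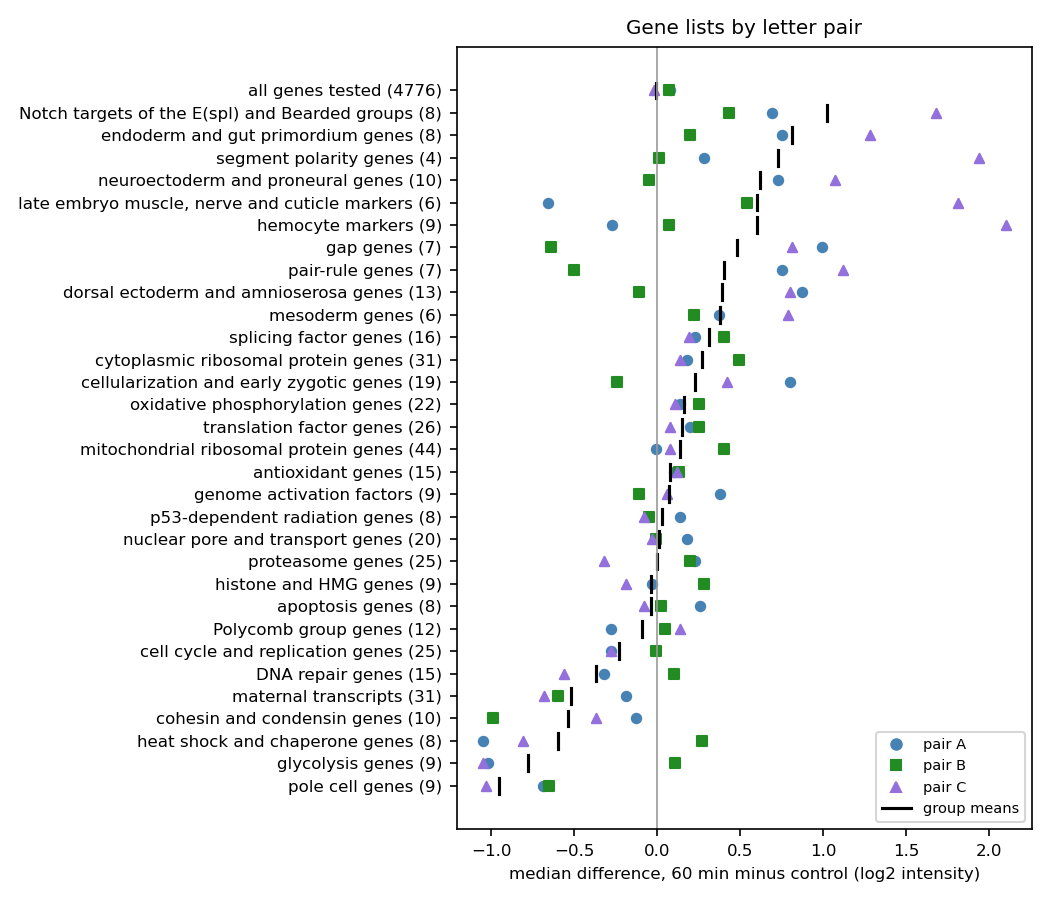
Median difference (log2 intensity, 60 min minus control) over the bright members of each gene list, with 1 symbol per letter pair and a black bar for the group means; numbers of bright members are in parentheses. Pole cell, maternal and cohesin lists lie below 0 in all 3 pairs, glycolysis and heat shock lists only in A and C, and gap and pair-rule lists above 0 only in A and C.

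Genes of the radiation response had no common direction. Of the 13 measured members of the list of p53-dependent genes, 6 were higher and 7 lower, and over the 8 bright ones the median was 0.03. p53 itself was at 1590, 1668 and 2247 in the controls and 1709, 1566 and 2104 at 60 min. The groups overlapped almost entirely, at -0.03 ± 0.34. Corp, a p53 target that restrains p53, was at 750, 604 and 895 against 716, 1035 and 1169, or 0.37 ± 0.33. The cell death gene skl, a dim gene, was at 90.4, 188 and 55 against 162, 262 and 114. All letters were higher, by 0.84, 0.48 and 1.04, but the groups overlapped and the difference was 0.79 ± 0.61. egr, the fly TNF, was at 534, 1095 and 82.3 against 1022, 655 and 144, without a common direction among the pairs. Its difference was 0.33 ± 1.0.

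The end-joining genes pointed the other way or nowhere. Irbp, the fly Ku70 and just below the bright limit, was at 734, 217 and 432 against 200, 223 and 178. Controls A and C were above the irradiated samples and control B was among them, at -1.04 ± 0.54. Ku80 was at 260, 155 and 559 against 157, 245 and 389, or -0.20 ± 0.57. The highest bright member of the list was Traf4, an adaptor of TNF signalling, at 1.12 ± 0.68, and the lowest was RnrL. Expression of rpr, W, RnrS and Xrp1 was not analysed here, because no probe set could be given those names from the platform table.

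Wider repair and cell cycle lists had medians below 0. DNA repair genes had a median of -0.37 (12 of 15 bright lower), with pair medians of -0.32, 0.10 and -0.56. The mismatch repair genes Msh6 (-1.03 ± 0.81) and Pms2 (-0.85 ± 0.70) were the lowest bright members, and agt, an alkyltransferase, the highest (0.11 ± 0.44). Cell cycle and replication genes had a median of -0.23 (18 of 25 lower), from RnrL and Rbf up to aurB, the Aurora B kinase (0.30 ± 0.27), and trbl, an inhibitor of the string phosphatase (0.32 ± 0.30). PCNA, the replication clamp, differed by 0.00 ± 0.42, at 8057, 9354 and 5272 against 9217, 9272 and 4659. Cohesin and condensin genes were lower in 9 of 10 bright cases, 5 of them in all 3 pairs, with a median of -0.54. That direction depended on the spike-in level of the arrays: with it as a covariate the median was 0.20, and with the letter block added -0.03. The cell cycle median became 0.02 in the latter model. Without the covariate and block, pair B of the cohesin and condensin genes was the furthest down (-0.99). Their lowest bright members were dmt and pds5, while san, an acetyltransferase, was at 0.00 ± 0.43.

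Apoptosis genes had a median of -0.04. Debcl, a Bcl-2 family gene, was the lowest, at -1.50 ± 0.77, with pair differences of -2.52, 0.04 and -2.01. Dcp-1, an effector caspase, was the highest bright member, at 0.54 ± 0.31, and was higher in all 3 pairs by 0.35, 0.59 and 0.66.

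Among metabolic and stress genes, the glycolysis and heat shock lists separated pair B from the others. Glycolysis genes were lower in 9 of 9 bright cases with a median of -0.78, and by pair the medians were -1.02, 0.11 and -1.05. Tpi, triose phosphate isomerase, was at 4042, 427 and 4505 in controls A, B and C and at 560, 715 and 1447 at 60 min. Control B was the lowest of all 6 arrays, and the difference was -1.25 ± 0.82. In 3 bright members all pairs were lower. Hex-A, a hexokinase, was at 839, 507 and 848 against 559, 225 and 221, a difference of -1.23 ± 0.58. The others were Eno, enolase, by -1.02, -0.32 and -1.05 in pairs A, B and C, and Gapdh1, a glyceraldehyde phosphate dehydrogenase, by -1.07, -0.09 and -1.19. Ald1 (-0.10 ± 0.23) and Pglym78 (-0.07 ± 0.35) had the smallest differences of the bright members.

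Heat shock and chaperone genes had a median of -0.60, with pair medians of -1.05, 0.27 and -0.81. The small heat shock gene Hsp27 was at 8872, 2797 and 10273 against 3668, 1415 and 2401, lower in each pair. Hsp26, its neighbour in function, was at 7757, 803 and 9016 against 876, 1510 and 3419, where pair B was higher by 0.91. The constitutive chaperone Hsc70-4 was the highest bright member at 0.21 ± 0.23. Antioxidant genes had a median of 0.08; dhd and the thioredoxin reductase Trxr1 (-1.15 ± 0.52) were the lowest bright members and maf-S, a small Maf factor, and GstE1, a glutathione transferase, the highest (0.54 ± 0.33 and 0.44 ± 0.23).

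Housekeeping lists stayed near the median. Cytoplasmic ribosomal protein genes were higher in 31 of 31 cases, 30 of them in all 3 pairs, but by a median of only 0.27 that became 0.01 after quantile normalization. Mitochondrial ribosomal proteins (0.14), oxidative phosphorylation (0.16), translation factors (0.15), the proteasome (0.00), nuclear pore and transport (0.01), histones and HMG proteins (-0.04) and Polycomb genes (-0.09) had medians close to 0. Splicing factors were at 0.31 (12 of 16 higher; -0.02 with the spike-in covariate), with B52 (0.55 ± 0.35) and SC35 (0.51 ± 0.61) highest and Prp8 (-0.54 ± 0.78) lowest. Cellularization and early zygotic genes had a median of 0.23, from -1.22 to 1.15. Hemocyte markers and markers of late embryonic muscle, nerve and cuticle, cells that form later, both had a median of 0.60, and control C was the lowest array in both. The summed hemocyte markers were 6954, 6037 and 1372 in controls A, B and C and 6013, 5863 and 5531 at 60 min. In controls A, B and C the late embryo markers summed to 10818, 4701 and 1375, against 7740, 6143 and 4967. In both lists pair A was lower, and without control C the medians were -0.15 and -0.19, so their direction rested on that array. The part of these levels in the other results was not tested.

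The hybridization spike-ins of the arrays, which monitor the hybridization and not the embryos, differed between the groups within letters. Their mean log2 level was 10.81, 10.72 and 11.60 in controls A, B and C and 10.92, 11.54 and 11.74 at 60 min, so that pair B was unmatched. With this level as a covariate together with the letter block, limma called 910 probe sets (4.85%) at an adjusted p of 0.05, of which 409 were higher and 501 lower. Of the bright ones, 326 were called higher (5.78%) and 386 lower (6.85%). Without the covariate, 897 of the 910 had the same sign. However, only 356 of the 910 had an unadjusted limma p under 0.05 with the block alone. In 384 of the 712 bright calls all 3 pairs lay on the same side as the fit. The fitted size could also exceed every pair. alphaTub67C was fitted at -4.19 with pair differences of -3.39, -0.53 and -2.73. The gene rib was fitted at 2.32 with pairs of 1.33, -0.17 and 2.19. Ama, fitted at 1.71, stayed within its pairs of 0.81, 0.65 and 1.88. How many of the 910 exceeded all pairs was not counted. Of the 24 genes named above 14 were among the 910, 8 higher and 6 lower, and of the 19 genes lower by more than 2-fold 16 were. Both sets had been chosen by their values in these same arrays, so these counts add no support. With the letter block and all B arrays left out, a choice made after the data were seen, 231 probe sets (1.23%) were called, 38 higher and 193 lower. Both models called 206, which is 22.6% of the first set and 89.2% of the second. They share the A and C arrays, so this overlap is not independent evidence. The covariate without the block gave 0 calls, and the block with only control B left out also gave 0. These calls exist only in models with these terms, and the part of the spike-in level in them was not tested further.

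Calls of the covariate model were also counted by list. Maternal transcripts were called lower in 15 of 44 measured genes and higher in 0, against 3.71% lower and 2.6% higher over all 11982 genes. They were osk, exu, swa, otu, BicC, alphaTub67C, mtrm, gnu, png, orb, fs(1)N, dl, BigH1, Fs(2)Ket and dhd. Without the B arrays, 13 of the 44 were called lower and 0 higher (1.39% and 0.234% over all genes). Notch targets were called higher in 7 of 13, dorsal ectoderm genes in 9 of 20, gap genes in 6 of 11 and neuroectoderm genes in 6 of 17, with 0 lower in each; without the B arrays these 4 lists had 0, 1, 1 and 1 calls. Glycolysis genes were called lower in 6 of 10 (Hex-A, Pfk, Tpi, Gapdh1, Pgk and Eno), and without the B arrays in 3 (Tpi, Gapdh1 and Pgk). Among p53-dependent genes, egr and Traf4 were called higher and RnrL lower. Without the B arrays RnrL and Irbp were called lower and 0 higher.

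Whether 60 min differed from the other times was tested by differences that do not use the controls. The control arrays still entered the estimate of the spread. Against the mean of the 5, 30 and 90 min groups, limma called 0 of 18769 probe sets (0%). Its smallest adjusted p there was 0.752, and before adjustment 408 (2.17%) were under 0.05. The 5 bright genes with the smallest p on the higher side were CG13044, Corp, CG16815, Mabi and Ac78C, an adenylyl cyclase, at 0.36 to 0.74 above the other times. Corp, for example, was at 716, 1035 and 1169 at 60 min, against 566 to 739 at 5 min, 596 to 809 at 30 min and 769 to 1090 at 90 min. The ranges overlap at 5, 30 and 90 min, and the difference was 0.36 ± 0.27. On the lower side were pds5, the mitochondrial chaperone Hsc70-5, the RNA-binding Rnp4F, CG9855 and CG32104. pds5 at 742, 639 and 463 compared with 701 to 803 at 5 min, 677 to 1022 at 30 min and 609 to 1404 at 90 min, a difference of -0.47 ± 0.29. All 10 had an adjusted p of 1 in limma.

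Set side by side against the shared controls, the differences at the 4 times were of like size for most named genes. RnrL was at -1.13, -0.95, -1.39 and -1.26 at 5, 30, 60 and 90 min, and Gli at 1.26, 1.06, 1.27 and 1.19. pds5 was at -0.75, -0.53, -1.08 and -0.56. Fs(2)Ket had -1.96, -1.56, -2.28 and -1.87, osk -1.23, -0.99, -1.45 and -1.06, and Idh -1.06, -0.81, -0.91 and -0.11. Idh had the smallest of these differences at 90 min. Since the same 3 control arrays enter all 4 differences, their likeness is not independent evidence.

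**Figure D5:**
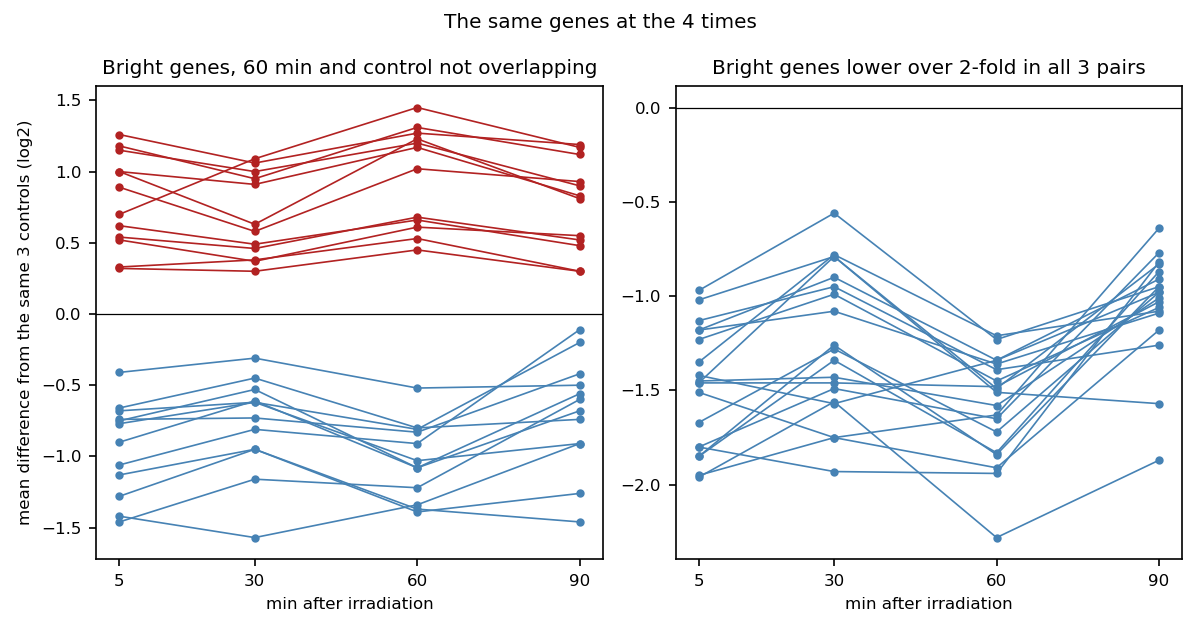
Mean difference from the same 3 control arrays (log2, vertical axis) at 5, 30, 60 and 90 min after irradiation, with 1 line per gene. Left, the 24 bright genes whose 60 min and control groups do not overlap on the named probe set (red higher, blue lower at 60 min). Right, the 19 genes lower by more than 2-fold in all 3 pairs. All lines stay on the side of 0 they have at 60 min.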

How the data were processed

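The deposited intensity values come from MAS5 according to the submitters' processing notes, without a version in the sources used here. They are linear, with a trimmed mean (2% off each end) of 500.01 to 500.02 per array, and the deposited scaling was kept. Near the background MAS5 values are noisy. Of the tested probe sets 13647 had 1 gene symbol, 402 several and 4720 none; 13544 were looked up in RefSeq by Entrez identifier, which changed 0 symbols, and 103 kept the platform's symbol. Values were transformed as log2(intensity + 1), which understates changes of dim genes. All 15 arrays entered a linear model of the 5 groups (limma 3.58.1, R 4.3.3; intensity trend, two-sided, Benjamini-Hochberg over all 18769 probe sets, threshold 0.05). The letter block was an alternative: after subtraction of group means, the control and 60 min arrays of letters A, B and C correlated at 0.3, 0.125 and 0.396, so the letters were taken to pair the samples. Named genes were the 12 in each direction with the smallest p under the block among bright probe sets whose groups did not overlap. Also named were up to 2 extremes per list, the listed radiation genes, and 5 in each direction against the other times. Genes with more than 2-fold differences in all pairs, and some further list members, were named after their values were seen. For lists the brightest probe set stood for a gene; 608 of 827 listed symbols matched. The members, the 29 gene lists and the 5 marker lists were chosen with earlier results of these data known. The fit was tested on simulated data with letter effects but no spike-in effect. The simulated shifts were larger than most differences named here, so that run does not show the power at these sizes. Nothing in the labels says that samples came from separate parents, so p-values measure the spread between these samples.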

Additional observations from a re-analysis of the deposited data

How the results depend on the processing

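With 3 arrays a group, the number of arrays limited the precision. The call count of 0 held without and with the replicate block (a paired fit), with the letter as a random block, with only the 6 arrays compared, and under the other pseudocount, filters, quantile normalization and each array or letter left out without a block (0 to 0). It also held with the spike-in covariate without the block. The replicate block without control B, chosen after the data were seen, gave 0 as well. The count changed with the spike-in covariate and replicate block (910 probe sets, 712 bright) and with that fit after quantile normalization (915, 693). That fit without control B gave 1151 and 901, and without 60 min B 521 and 435. The replicate block without the B arrays gave 231 and 200. The last 4 of these fits were chosen after the data were seen, and the cause was not tested. Counts at an unadjusted p under 0.05 ran from 480 to 3509 in fits over all probe sets. Of 806 values of named genes under alternatives, 728 kept direction and side of the threshold, 61 passed it and 17 reversed. p53 became 0.04 under quantile normalization with and without the block, 0.00 with the block without B arrays and 0.09 with the block without control B. Corp became -0.02 with the spike-in covariate and block, 0.00 in that fit without control B and -0.02 without 60 min B. Leaving out 1 array or letter, the difference of egr ran from -0.73 to 1.16, of Ku80 from -0.63 to 0.29 and of p53 from -0.15 to 0.13. Of 837 list medians, 701 stayed within 1 SD of the pairs, 136 moved and 71 changed sign.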
